A study of Arabidopsis thaliana with 34 samples.

Results

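TET1 to TET9 are 9 genes of the Arabidopsis tetraspanin family, and 1 of them, TET3, lies inside the stretch of chromosome 3 that was cut out of the pAP141 line. They were taken by locus, AT5G46700 (TET1), AT2G19580 (TET2), AT3G45600 (TET3), AT5G60220 (TET4), AT4G23410 (TET5), AT3G12090 (TET6), AT4G28050 (TET7), AT2G23810 (TET8) and AT4G30430 (TET9), and all 9 were found among the 27538 genes listed for each of 34 RNA samples. The time-of-day samples were pools of plate-grown seedlings of T4 pAP141 (4 in the evening, t1, and 2 in the morning, t2), T4 pAP142 (3 at t1 and 3 at t2) and wild-type Col-0 (4 at t1 and 3 at t2). The pAP146 samples were 4 of whole homozygous T3 seedlings, whose development was delayed, and leaves of 3 heterozygous T3 plants, 4 sibling controls and 4 Col-0 plants. Each deletion is represented by 1 line, made with SaCas9 driven by an egg cell-specific promoter and a pair of gRNAs, so that a line and its deletion cannot be told apart. Homozygous pAP146 samples differ from every leaf sample in tissue as well as in genotype, and these cannot be told apart either. The labels do not say whether samples of a group came from separate plates, and p-values then measure the spread between these samples.

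Tetraspanins are small membrane proteins that cross the membrane several times and expose a large loop to the outside, which in plants carries a conserved cysteine motif. They gather other proteins into patches of membrane. In Arabidopsis TET8 is the usual marker of the extracellular vesicles that carry small RNAs to fungal pathogens, and TET9 has been tied to the same transport. TET1, also called TORNADO2, is needed for the symmetry of leaves and the patterning of the root epidermis. TET5 and TET6 act redundantly in limiting organ growth, and TET3 protein has been found at plasmodesmata, the channels between plant cells. TET4 is the retained syntenic partner of TET3, that is, the copy in the matching duplicated region.

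The ends of the pAP141 deletion are shown because they decide which family members are lost. Both spacers have a single perfect match with an SaCas9 PAM on the TAIR10.1 assembly, and the PAM is in capitals.
pAP141 spacer 1: ggagtttcaactccggtgttaATGGGT
pAP141 spacer 2: ggtaagcttgtccgagctatgGTGGGT
Counted with its PAM, spacer 1 lies on the minus strand at chr3:16632566-16632592 and spacer 2 on the plus strand at chr3:16747522-16747548. TET3 lies between them on the minus strand at chr3:16733755-16735951, with coding exons at 16735342-16735854 and 16733973-16734317, and the nearer break is 11588 bases from the gene. Of the 25 genes that lie wholly between the breaks, TET3 is the sole member of the family. No member lies between the breaks of pAP142 or pAP146. Summed over the genes between the breaks, expression was at most 0.0205 TPM in pAP141, 0.284 TPM in pAP142 and 0.122 TPM in homozygous pAP146 samples, so the labels of the lines match the genes lost.

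TET4 lies on chromosome 5 at chr5:24248920-24250117, with 2 coding exons. Of the 36 pairs among the 9 coding sequences, TET3 and TET4 were the most alike, with 79.6% of 857 aligned bases identical, followed by TET8 and TET9 (72.8% of 815) and TET7 and TET9 (69.5% of 790). The stretch below, bases 130 to 219 of each coding sequence, is the 90-base window in which TET3 and TET4 match best, and the 79 identical bases are in capitals.
TET3: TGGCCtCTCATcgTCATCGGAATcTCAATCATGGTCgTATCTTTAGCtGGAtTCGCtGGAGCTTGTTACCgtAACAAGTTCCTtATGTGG
TET4: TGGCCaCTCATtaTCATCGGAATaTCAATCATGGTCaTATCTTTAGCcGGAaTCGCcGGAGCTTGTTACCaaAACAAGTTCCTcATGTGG
These stretches lie at chr3:16735636-16735725 on the minus strand and chr5:24249086-24249175 on the plus strand. Even so, no stretch of 31 bases of any of the 9 coding sequences occurred in the coding sequence of another of 27352 genes on either strand, so a read holding such a stretch has its perfect match in 1 member.

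The promoters of the pair are shown because the genes stand at very different levels. The 250 bases before each gene start were searched on both strands for TTGAC, the core of the W-box that WRKY factors bind, CACGTG, the G-box, and AAATATCT, the evening element of the clock. Matches are in capitals.
TET3 promoter: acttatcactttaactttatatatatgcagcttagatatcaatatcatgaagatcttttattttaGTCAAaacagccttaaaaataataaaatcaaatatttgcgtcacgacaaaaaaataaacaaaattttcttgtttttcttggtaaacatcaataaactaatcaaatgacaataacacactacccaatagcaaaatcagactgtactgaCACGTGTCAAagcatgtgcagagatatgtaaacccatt
TET4 promoter: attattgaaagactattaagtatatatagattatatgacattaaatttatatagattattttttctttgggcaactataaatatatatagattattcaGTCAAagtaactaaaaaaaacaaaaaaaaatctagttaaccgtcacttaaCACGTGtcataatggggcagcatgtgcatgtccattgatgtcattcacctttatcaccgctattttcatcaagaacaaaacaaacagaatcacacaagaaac
They lie at chr3:16735952-16736201 on the minus strand and chr5:24248670-24248919 on the plus strand. Each holds 1 G-box, found in 6.49% of 27438 promoters of this length, and the TET3 promoter holds 2 copies of TTGAC and the TET4 promoter 1, found in 44.9%. One TTGAC of TET3 shares a base with its G-box. TET1 and TET5 hold 1 TTGAC each, and these letters are not in the windows of TET2, TET6, TET7, TET8 or TET9. AAATATCT, found in 4.79% of promoters, is in none of the 9.

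In Col-0 seedlings the 9 genes spanned more than 2 orders of magnitude in TPM, a unit that is scaled for the length of each gene. At t1, TET8 averaged 69.9 ± 25.0 TPM (SD, n = 4) and TET3 32.5 TPM, followed by TET7 at 17.1 ± 0.934 TPM, TET1 at 14.5 ± 1.86 TPM and TET6 at 10.4 ± 1.46 TPM (SD, n = 4 each). TET2 stood at 5.401 ± 0.325 TPM and TET5 at 2.87 ± 0.399 TPM, and TET9 and TET4 at 0.227 ± 0.174 and 0.157 ± 0.0692 TPM (SD, n = 4 each). Neighbours in this order had samples that overlapped for TET7 with TET1 and for TET9 with TET4, and the other neighbours stood apart. The order at t2 was the same, with overlaps at the same places. In Col-0 leaves the order was also the same down to TET5, but TET8, at 24.3 ± 3.58 TPM (SD, n = 4), overlapped with TET3, at 18.3 ± 3.84 TPM (SD, n = 4). TET1 and TET6 also overlapped there. The 9 panels of levels by sample show that TET7 had much the same range in leaves, 11.8 to 15.1 TPM over 8 Col-0 and sibling samples, as in Col-0 seedling pools, 12.75 to 18.02 TPM over 7 samples, whereas TET1, TET2, TET3, TET5 and TET6 were lower in each of these leaves than in each pool. TPM is relative to each library, and in the pAP146 experiment it read high in homozygous seedlings beside leaves. There the log2 ratio of mean TPM lay above the edgeR log2 fold change by a median of 0.73. The differences between pools and leaves given here are in TPM and are not scaled for such a shift. The experiments were not tested against each other.

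**Figure D1:**
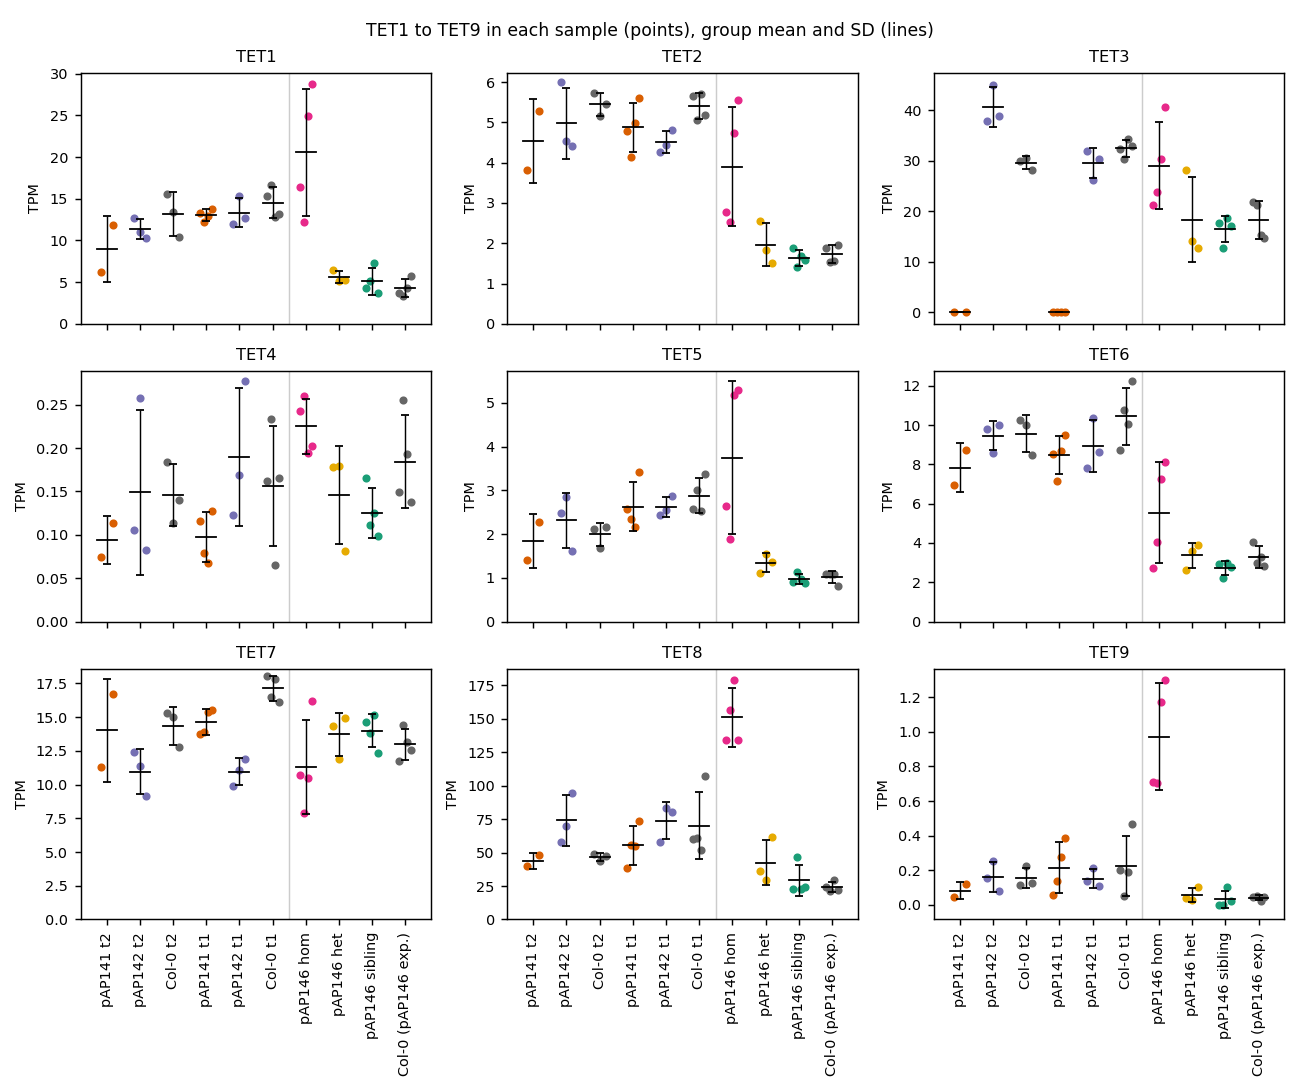
TPM (vertical axis, a scale of its own in each panel) of TET1 to TET9 in each sample, by group (horizontal axis), with points for samples, a line for the group mean and a bar for the SD. TET3 is at 0 in all 6 pAP141 samples, and TET8 and TET9 are highest in the 4 homozygous pAP146 samples, at 134 to 179 and 0.705 to 1.30 TPM.

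TET3 had no read in any of the 4 pAP141 t1 or 2 pAP141 t2 samples, against 1316 to 1689 reads per sample in Col-0 t1 and 1189 to 1595 in Col-0 t2. TET3 TPM in Col-0 t1 was 32.4, 30.4, 34.3 and 33.0, and in Col-0 t2 it was 30.0, 30.7 and 28.2. With 3 reads in a library as the limit that a count of 0 allows, which covers counting error only, TET3 was at least 440-fold lower in pAP141 t2 than in Col-0 t2. TET3 was the single member called in pAP141 at t1 and at t2, where 0.0749% and 0.0983% of the 21356 genes tested were called (edgeR quasi-likelihood F test, adjusted p = 2.92e-12 and 4.44e-10). These backgrounds are small and depend on the setting: without pAP141 t1 replicate 3, 2418 genes were called at t1, and without pAP141 t2 replicate 2, 2472 at t2. A call means an adjusted p under 0.05 after Benjamini-Hochberg adjustment over all genes tested.

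TET4, the partner of TET3, had few reads in both genotypes and a lower mean where TET3 was absent, and the difference was not called. It had 8, 5, 4 and 7 reads in the pAP141 t1 samples, or 0.117, 0.0793, 0.0674 and 0.128 TPM, against 10, 12, 3 and 8 reads, or 0.162, 0.234, 0.0656 and 0.165 TPM, in Col-0 t1. The difference of the means was -0.0590 TPM (2-sided exact permutation test, p = 0.2, smallest possible 0.0286). At t2 it had 4 and 6 reads, or 0.0745 and 0.114 TPM, in pAP141 and 10, 7 and 7 reads, or 0.184, 0.114 and 0.141 TPM, in Col-0 (difference -0.0519 TPM, exact permutation test, p = 0.4, smallest possible 0.1). The groups overlap at both times, and at t2 no difference could have reached a permutation p under 0.05. These TPM differences carry a scale shift between the genotypes. Over all genes tested, the log2 ratio of mean TPM lay below the edgeR log2 fold change, by a median of -0.17 at t1 and -0.22 at t2. In the edgeR fit the log2 fold change of TET4 was -0.50 at t1, with a normal 95% interval from -1.36 to 0.36. At this depth an increase of more than 0.36 lies outside the interval and a decrease of 1 does not. Normal intervals are narrower than the F test allows, so an increase a little above 0.36 is not excluded. At t2 the interval ran from -1.57 to 0.78. Over all 34 samples TET4 never exceeded 16 reads or 0.278 TPM.

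None of the other 7 members was called in pAP141. Of all genes tested, edgeR called 0 higher and 16 lower at t1, and 9 higher and 12 lower at t2. The absence of a call in edgeR therefore says little about a member. At t1 the log2 fold changes of the 7 lay between -0.16 (TET8, SE 0.211) and 0.052 (TET5, SE 0.179) in edgeR. DESeq2, with 382 genes called higher and 704 lower at t1 and 327 and 122 at t2, called none of the 7 either. It gave no adjusted p for TET2, TET5 and TET9 at t1 or for TET9 at t2. TET8, the vesicle marker, had 38.2, 55.5, 54.8 and 73.8 TPM in pAP141 t1, against 59.8, 60.9, 51.9 and 107 TPM in Col-0 t1, where replicate 4 stood apart. Without that replicate its log2 fold change was 0.11 (SE 0.178), the other direction. TET1, TET2, TET6 and TET9 had log2 fold changes of 0.027, 0.024, -0.12 and 0.043 at t1. At t2, TET1 had 6.23 and 11.8 TPM in pAP141 and 15.6, 13.4 and 10.4 TPM in Col-0, and edgeR gave -0.34 on the log2 scale (SE 0.147, adjusted p = 0.261). Replicate 1 of pAP141 t2 is the low sample, and without replicate 2 that single sample gave -0.61 and was called (adjusted p = 0.0323 in edgeR), with the spread taken from the other groups. TET7, at 11.3 and 16.7 TPM in pAP141 t2 and 12.7 to 15.3 TPM in Col-0 t2, stood apart on the TMM scale used for testing and had 0.19 (SE 0.107, adjusted p = 0.380 in edgeR), and TET2, TET5, TET6, TET8 and TET9 had -0.040, 0.096, -0.053, 0.15 and -0.70.

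Levels in TPM and fold changes from edgeR are not on the same footing. Over all genes tested, the log2 ratio of mean TPM lay below the edgeR log2 fold change, which is scaled by the TMM method, by a median of -0.17 for pAP141 over Col-0 at t1 and -0.22 at t2. TET7 shows the effect: all 4 pAP141 t1 samples, at 13.7, 13.9, 15.4 and 15.6 TPM, were below the 4 Col-0 t1 samples, at 18.02, 16.5, 17.8 and 16.2 TPM, yet in CPM, counts relative to the TMM-scaled library size, they lay at 17.1 to 17.2 CPM and the Col-0 samples at 16.3 to 19.5 CPM. For TET7 the edgeR fit gave -0.053 on the log2 scale (SE 0.0823, adjusted p = 0.735 in edgeR).

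The summed level of the family was lower in pAP141, and TET3 made up the larger part of the gap. The 4 pAP141 t1 samples averaged 99.6 TPM for the 9 genes together (SD 16.9), against 153 TPM over the 4 Col-0 t1 samples (SD 25.3), where TET3 made up 17.3 to 25.4% of each sum. In the morning the 2 pAP141 samples averaged 81.5 TPM (SD 16.7), against 121 TPM over 3 Col-0 samples (SD 6.54). With TET3 left out, the Col-0 sums came to 121 TPM at t1 (SD 25.3) and 91.4 TPM at t2 (SD 5.92). The sums of those 8 genes overlapped between genotypes, at 81.3 to 122 TPM in pAP141 t1 and 101 to 158 TPM in Col-0 t1, and at 69.7 to 93.3 TPM in pAP141 t2 and 87.1 to 98.2 TPM in Col-0 t2. They carry the scale shift given above. TET8 made up 55.2% of what was left at t1 and 54.4% at t2.

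**Figure D2:**
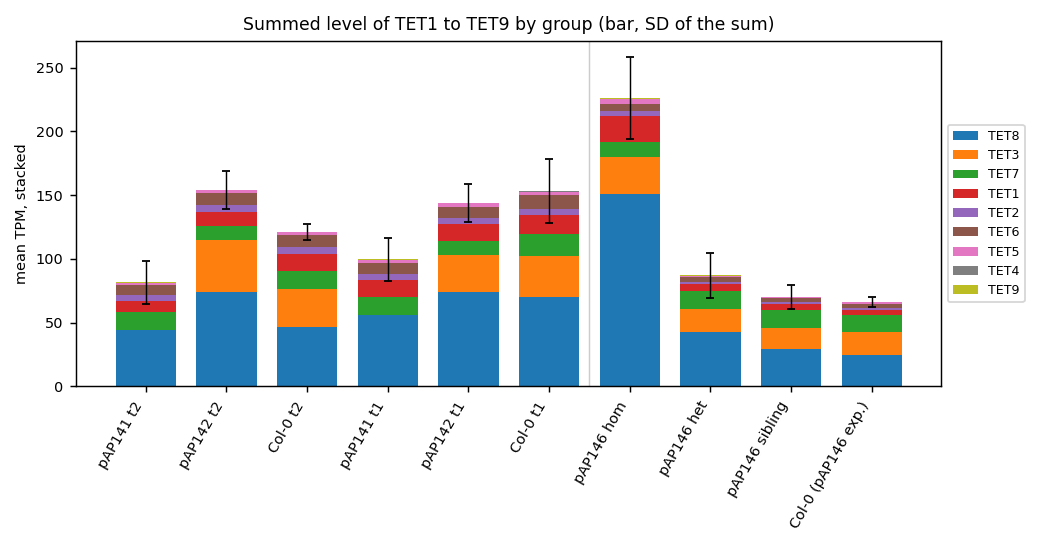
Mean TPM of TET1 to TET9 stacked by gene (vertical axis) for each group (horizontal axis), with the SD of the sum over samples as a bar. The sum is 99.6 TPM in pAP141 t1 and 153 TPM in Col-0 t1, and it is 226 TPM in homozygous pAP146 samples, mostly TET8, and 70.3 TPM in siblings.

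In pAP142, which keeps the whole family, TET7 was lower than in Col-0 and TET3 was higher in the morning. In pAP142 t1, where 18.3% of the genes tested were called, TET7 was the single member called. It had 9.88, 11.1 and 11.9 TPM, against 18.02, 16.5, 17.8 and 16.2 TPM in Col-0 t1, and the groups stand apart. In edgeR this came to -0.61 on the log2 scale (SE 0.0905, adjusted p = 0.000224), and it lay between -0.66 and -0.57 under each of the 13 alternative settings run for it. At t2, where 7.74% of genes were called, 2 members were called. TET7 had 12.4, 11.3 and 9.12 TPM in pAP142 and 15.3, 15 and 12.7 TPM in Col-0 (log2 fold change -0.36, SE 0.0963, adjusted p = 0.0290 in edgeR). TET3 had 37.8, 45.1 and 38.9 TPM in pAP142 t2 and 30.0, 30.7 and 28.2 TPM in Col-0 t2 (log2 fold change 0.49, SE 0.124, adjusted p = 0.0301 in edgeR). All 3 pAP142 samples are above all 3 Col-0 samples for TET3 and below them for TET7. These calls are close to the threshold: TET3 was lost without any 1 Col-0 t2 sample or without pAP142 t2 replicate 2 or 3 (adjusted p = 0.0549 to 0.139 in edgeR) and with a replicate block (0.0590). TET7 was lost without any 1 Col-0 t2 sample or pAP142 t2 replicate 3 (adjusted p = 0.0572 to 0.142 in edgeR) and with the compared groups alone (0.109).

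TET8 was high in the same morning samples without passing the test. It had 57.7, 69.7 and 94.7 TPM in pAP142 t2, all above the 48.8, 43.4 and 47.6 TPM of Col-0 t2 (log2 fold change 0.70, SE 0.245, adjusted p = 0.0940 in edgeR and 0.0413 in DESeq2). In edgeR it was called without pAP142 t2 replicate 1 (log2 fold change 0.88, adjusted p = 0.0330) and with a replicate block (0.68, adjusted p = 0.0243). At t1 TET8 had 57.7, 83.1 and 79.9 TPM in pAP142 and 59.8, 60.9, 51.9 and 107 TPM in Col-0, which overlap (log2 fold change 0.11, SE 0.227). TET1, TET2, TET4, TET5, TET6 and TET9 were not called in pAP142 at either time. Among them TET2 stood apart at t1, with 4.27 to 4.80 TPM in pAP142 and 5.06 to 5.70 TPM in Col-0 (log2 fold change -0.23, SE 0.115, adjusted p = 0.180 in edgeR).

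Defence genes and root genes also moved in pAP142. Over Col-0, 18.3% of the 21356 genes tested were called at t1 (2006 higher and 1910 lower) and 7.74% at t2 (1083 higher and 571 lower). Of 10 genes of salicylic acid signalling and defence, 7 were called higher at t1 and 7 at t2, and their sum was 57.0 to 87.7 TPM in pAP142 t1 and 34.6 to 44.2 TPM in Col-0 t1, and 56.5 to 94.8 and 31.4 to 37.5 TPM at t2. PR5, a gene for a pathogenesis-related protein, averaged 21.1 TPM in pAP142 t1 and 8.88 TPM in Col-0 t1. Of 15 root markers, 7 were called lower and 1 higher at t1, and 3 lower at t2, and their sum was 44.2 to 70.9 TPM in pAP142 t1 and 103 to 145 TPM in Col-0 t1, and 49.4 to 99.95 and 107 to 150 TPM at t2. Every root marker had reads in both genotypes, though pAP142 t1 replicate 2 had no read of 2 of the 15. In bulk samples, fewer cells of a type and less RNA per cell cannot be told apart, and the part of these genes in the levels of TET3, TET7 and TET8 was not tested.

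Time of day gave few calls in the family. None of the 9 members was called in Col-0 t2 over t1, where 30.6% of genes were called. None was called in pAP141 t2 over t1, where 34.6% were, but TET3, with no read there, could not be called. Each count was 0 in edgeR and 0 in DESeq2, with 0 members in Col-0 and 1 in pAP141 at an unadjusted edgeR p under 0.05. In pAP141 the one at an unadjusted p under 0.05 was TET1, at 6.23 and 11.8 TPM at t2 and 12.2 to 13.8 TPM at t1 (log2 fold change -0.33, SE 0.139, adjusted p = 0.0757 in edgeR). In pAP142, where 27.0% of genes were called, TET3 was the single member called. TET3 had 37.8, 45.1 and 38.9 TPM at t2 and 32.0, 26.3 and 30.4 TPM at t1, with no overlap (log2 fold change 0.64, SE 0.124, adjusted p = 0.00150 in edgeR), and it was called under each of the 12 alternatives run. In Col-0 the same comparison of TET3 gave 0.053 (SE 0.116). The difference between the 2 genotypes, tested as an interaction, was 0.58 (SE 0.170, unadjusted p = 0.00430, adjusted p = 0.233 in edgeR) and did not pass. No member was called for an interaction of pAP142 with time point, where 0.211% of genes were called. None was called for the interaction of pAP141 with time point, where 0% were. Each count was 0 in edgeR and 0 in DESeq2, with 1 member in pAP142 and 0 in pAP141 at an unadjusted edgeR p under 0.05. TET3, with no read in pAP141, could not be called for the pAP141 interaction, which left TET8 alone testable in DESeq2 there. In pAP141, DESeq2 gave an adjusted interaction p for TET3 and TET8 only, and without pAP141 t2 replicate 2, 138 genes were called in edgeR and still no member. The largest log2 fold changes in Col-0 were those of TET8, at 48.8, 43.4 and 47.6 TPM at t2 and 59.8, 60.9, 51.9 and 107 TPM at t1 (-0.39, SE 0.230, adjusted p = 0.227 in edgeR), TET9 (-0.34, SE 0.633) and TET5 (-0.33, SE 0.198). Without Col-0 t1 replicate 4 the value for TET8 was -0.12.

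**Figure D3:**
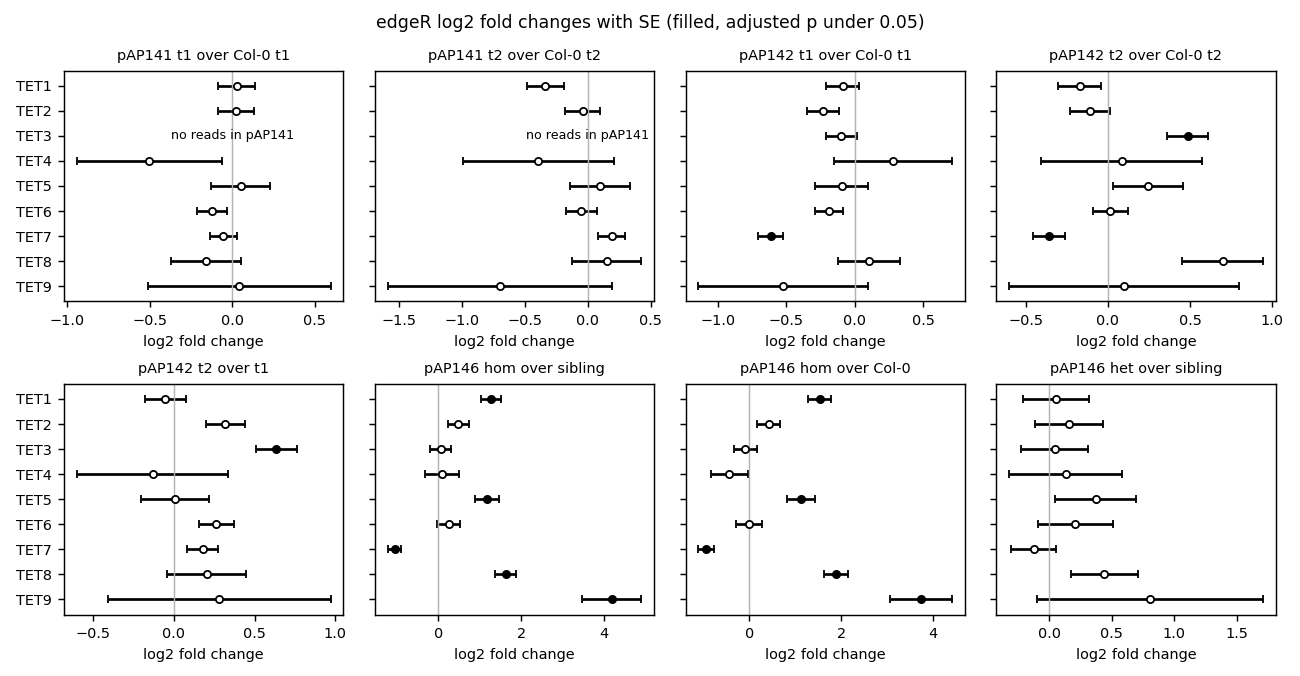
Log2 fold changes (horizontal axis, a scale of its own in each panel) of TET1 to TET9 (vertical axis) with SE bars in 8 comparisons, from edgeR. Filled points passed an adjusted p under 0.05, as TET7 in both pAP142 comparisons with Col-0 (-0.61 and -0.36) and 5 members in homozygous pAP146 samples, and TET3 has no point in pAP141, where it had no read.

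The family differed most in homozygous pAP146 seedlings. Against siblings, 4 members were called higher (TET1, TET5, TET8 and TET9) and 1 lower (TET7), in a comparison where 60.8% of the 20833 genes tested were called, 33.0% higher and 27.8% lower. Against Col-0 leaves these 5 members were called again, in the same directions, where 62.0% of genes were called, 33.8% higher and 28.2% lower. With 5 of 9 members called, the share is near that of all genes. The median log2 fold change of the 9 members against siblings was 0.48 and that of all genes 0.069. For all genes tested, the log2 ratio of mean TPM against siblings lay above the edgeR log2 fold change by a median of 0.73, and against Col-0 by 0.73, so TPM levels of homozygous samples read high beside those of leaves. All 9 markers of photosynthetic leaf tissue were called lower in homozygous samples than in siblings, with a median log2 fold change of -1.90.

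TET8 and TET9, the members tied to extracellular vesicles, gave the largest increases over leaves. TET8 had 134, 157, 179 and 134 TPM in homozygous samples, against 22.8, 47.0, 22.6 and 24.1 TPM in siblings, and 24.3, 21.6, 29.4 and 22.1 TPM in Col-0 leaves. Every homozygous sample is above every leaf sample, the heterozygous ones (36.2, 29.5 and 61.6 TPM) included. In edgeR it was higher by 1.62 on the log2 scale (SE 0.253, adjusted p = 8.71e-05) against siblings and 1.88 (SE 0.255, adjusted p = 2.58e-05) against Col-0. TET8 made up 67.1% of the summed family in homozygous samples and 40.5% in siblings. TET9 had 28, 28, 48 and 41 reads, or 0.709, 0.705, 1.17 and 1.30 TPM, in homozygous samples. Siblings had 0, 0, 4 and 1 reads of TET9, where a count of 0 allows up to 3, and Col-0 leaves 2, 2, 1 and 2. For TET9 the log2 fold change came to 4.19 (SE 0.710, adjusted p = 0.000168 in edgeR) against siblings and 3.74 (SE 0.679, adjusted p = 0.000296) against Col-0. Its size rests on few reads: without sibling replicate 3, which holds 4 of the 5 sibling reads, it was 5.84.

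TET1 had 16.4, 12.2, 24.9 and 28.8 TPM in homozygous samples, against 4.30, 5.14, 7.30 and 3.65 TPM in siblings, with no overlap (log2 fold change 1.27, SE 0.246, adjusted p = 0.000494 in edgeR). Over 7 Col-0 seedling pools, whose root markers summed to 103 to 150 TPM, TET1 was at 10.4 to 16.7 TPM. In the same pools TET5 was at 1.68 to 3.38 TPM, TET8 at 43.4 to 107 TPM and TET9 at 0.0489 to 0.465 TPM. In TPM the pools lay below every homozygous sample for TET8 and TET9 and overlapped with them for TET1 and TET5. Pools and homozygous samples are from separate experiments, and the difference was not tested. TET5 had 2.65, 1.88, 5.18 and 5.29 TPM in homozygous samples and 0.905, 1.14, 0.981 and 0.891 TPM in siblings (log2 fold change 1.18, SE 0.299, adjusted p = 0.00356 in edgeR). In TMM-scaled counts the lowest homozygous sample of TET5, at 1.61 CPM, was level with the highest sibling, at 1.61 CPM. Against Col-0 leaves the log2 fold changes were 1.53 (SE 0.248) for TET1 and 1.12 (SE 0.298) for TET5.

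TET7 was lower in homozygous seedlings than in leaves on the TMM scale. It had 10.7, 7.91, 10.5 and 16.2 TPM in homozygous samples and 14.6, 13.8, 15.1 and 12.3 TPM in siblings, which overlap, but in TMM-scaled counts homozygous samples, at 6.22 to 12.5 CPM, lay below all siblings, at 16.8 to 21.0 CPM. The edgeR value for TET7 was -1.06 on the log2 scale (SE 0.167, adjusted p = 9.24e-05) against siblings and -0.95 (SE 0.167, adjusted p = 0.000226) against Col-0. Homozygous replicate 4 is the high sample, and without it the value against siblings was -1.25.

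TET2, TET3, TET4 and TET6 were not called against either control. TET3 had 21.3, 23.9, 30.4 and 40.7 TPM in homozygous samples and 17.8, 12.8, 18.7 and 17.0 TPM in siblings, which do not overlap. On the TMM scale they did overlap, at 19.7 to 34.9 CPM in homozygous samples and 18.4 to 28.2 CPM in siblings, and edgeR gave 0.055 against siblings (log2, SE 0.247, adjusted p = 0.862) and -0.087 against Col-0 (SE 0.247). TET2 had 2.52 to 5.56 TPM in homozygous samples and 1.41 to 1.88 TPM in siblings (log2 fold change 0.48, SE 0.251, adjusted p = 0.109 in edgeR), and without homozygous replicate 2 it was called (0.65, adjusted p = 0.0323). TET6, the partner of TET5 in limiting growth, had 2.71 to 8.14 TPM in homozygous samples and 2.21 to 2.98 TPM in siblings (log2 fold change 0.25 against siblings, SE 0.279, and -0.0089 against Col-0, SE 0.278). TET4 stayed at 8 to 13 reads in homozygous samples and 6 to 9 in siblings (log2 fold change 0.099, SE 0.408).

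The 4 homozygous samples differed widely in markers of root and of defence. The 15 root markers summed to 12.4, 57.0, 147 and 213 TPM in replicates 1 to 4, and to 1.08 to 1.89 TPM in siblings, in which 8 of the 15 had no read. All 14 root markers tested were called higher than in siblings, in a comparison where 33.0% of all genes tested were called higher. TET1, TET2, TET3, TET5, TET6 and TET9 were each higher in replicates 3 and 4 than in 1 and 2, whereas TET4, TET7 and TET8 were not. TET4 was at 0.243, 0.260, 0.195 and 0.202 TPM and TET7 at 10.7, 7.91, 10.5 and 16.2 TPM in replicates 1 to 4. From replicate 1 to 2, where the root sum was higher, TET1, TET2 and TET5 were lower, and TET3 and TET6 higher. The 10 defence genes summed to 1715, 3911, 2749 and 173 TPM in replicates 1 to 4 and to 68.1 to 132 TPM in siblings. All 10 were called higher against siblings, beside the same 33.0% of all genes. PAD4, a regulator of salicylic acid defence, averaged 75.9 TPM in homozygous samples and 2.60 TPM in siblings. TET8 was at 134 TPM in replicates 1 and 4, and all 4 homozygous samples were above the siblings in both marker sums. The defence sum of replicate 4, at 173 TPM, lay below every heterozygous leaf sample, at 186 to 524 TPM. Col-0 leaves had 77.9 to 163 TPM. The part of root tissue and of defence in the levels of TET8 and the other members was not tested.

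**Figure D4:**
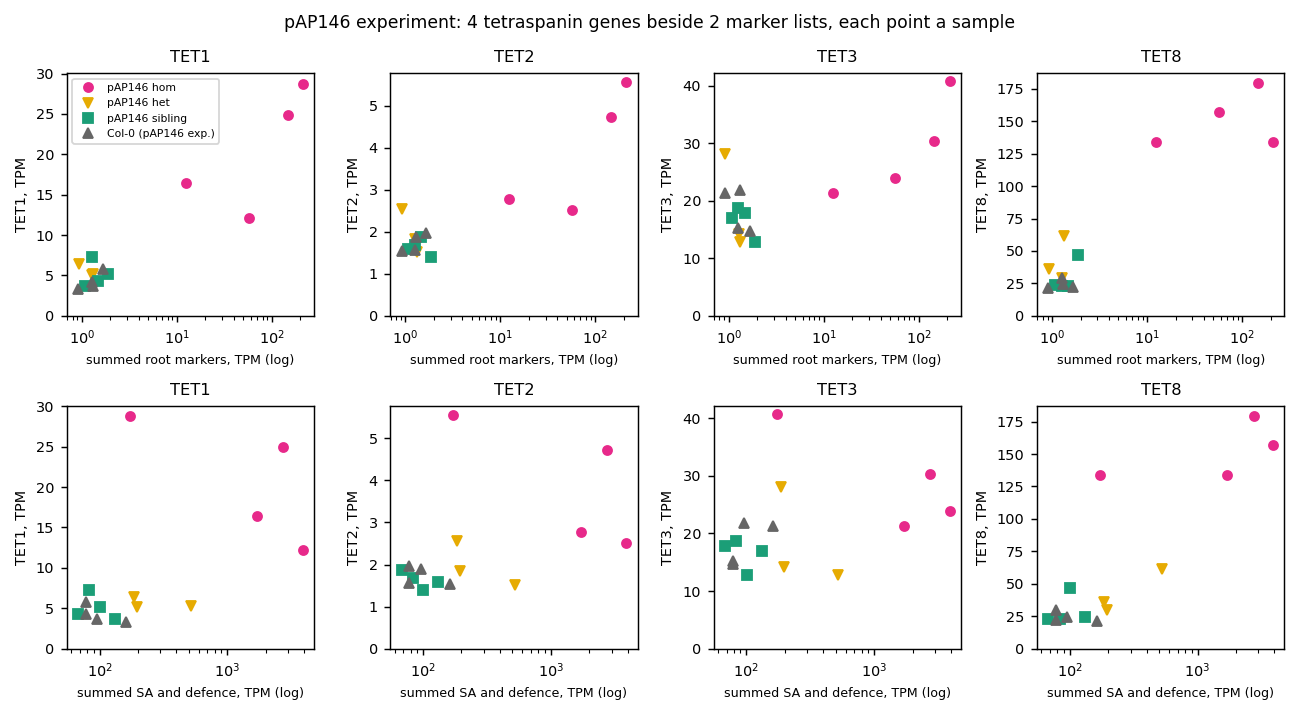
TPM of TET1, TET2, TET3 and TET8 (vertical axes) beside the summed TPM of 15 root markers (upper row) and 10 salicylic acid and defence genes (lower row), on log horizontal axes, with a point for each of the 15 pAP146 samples. TET8 is above 130 TPM in all 4 homozygous samples, whose root marker sums run over a range of 12.4 to 213 TPM.

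Between heterozygous and sibling leaves no member passed the test. None of the 9 was called, where 0.0528% of genes were, and none had an unadjusted p under 0.05 or was called in DESeq2. TET8 had 36.2, 29.5 and 61.6 TPM in heterozygous plants and 22.8, 47.0, 22.6 and 24.1 TPM in siblings, which overlap through sibling replicate 2 (log2 fold change 0.44, SE 0.266, 95% interval -0.080 to 0.96). The sample at 61.6 TPM, heterozygous replicate 3, also had the highest sum of defence genes among leaf samples, 524 TPM. Other leaf samples did not keep this order. Heterozygous replicates 1 and 2, at 36.2 and 29.5 TPM of TET8, had defence sums of 186 and 196 TPM. Sibling replicate 2, at 47.0 TPM of TET8, had a defence sum of 101 TPM, and sibling replicate 4, at 24.1 TPM, had 132 TPM. The relation was not tested. TET3 had 28.1, 14.2 and 12.8 TPM in heterozygous plants (log2 fold change 0.043, SE 0.268). Siblings over Col-0, both with a full set of genes, gave no call among the 9 members either, where 0.0144% of genes were called, and again none at an unadjusted p under 0.05 and none in DESeq2, with log2 fold changes from -0.54 (TET4, SE 0.412) to 0.26 (TET8, SE 0.249).

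Of the 11 other genes listed with tetraspanins, 5 passed the filter on low counts in the time-of-day samples and 4 in the pAP146 samples. TOM2A, named for its part in the multiplication of a tobamovirus, AT2G20230 and AT2G20740 were the high ones, at 76.8, 86.1 and 31.2 TPM in Col-0 t1, and TET10 was at 11.2 TPM. None of the 5 was called in pAP141 at t1 or t2, where 0.0749% and 0.0983% of all genes were called, which says little about them. In pAP142 t1, where 18.3% of all genes were called in either direction, 3 were called, all lower. They were AT2G20230 (log2 fold change -0.41, SE 0.0904), TET10 (-0.36, SE 0.104) and TET12, which averaged 0.0334 TPM in pAP142 t1 and 0.281 TPM in Col-0. In homozygous samples TET10 (log2 fold change -1.35, SE 0.127) and TOM2A (-0.45, SE 0.0973) were called lower than in siblings, where 27.8% of all genes were called lower. TET10 also differed with time of day in Col-0, at 14.4 TPM at t2 and 11.2 TPM at t1 (log2 fold change 0.55, SE 0.102, adjusted p = 0.000425 in edgeR). TET11, TET13, TET14, TET15, TET16 and TET17 never exceeded 0.134 TPM in any of the 34 samples.

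Of 13 genes for other proteins of extracellular vesicles and their small RNA cargo, none was called in pAP141 at t1 or t2. With 0.0749% and 0.0983% of all genes called there, no call in so short a list says little. In pAP142, 3 were called lower at t1, where 18.3% of all genes were called in either direction, and 1 at t2, where 7.74% were. In homozygous samples 5 were called higher than in siblings and 2 lower, where 33.0% of all genes were called higher and 27.8% lower, so the share called was near that of all genes, with a median log2 fold change over the list of 0.35 beside 0.069 for all genes. VAMP721, a vesicle fusion protein, had 0.41 (SE 0.0884, adjusted p = 0.00111 in edgeR). Of 7 plasmodesma genes, chosen because TET3 protein has been found there, none was called in pAP141 at either time, against the same small shares. In pAP142, 0 were called at t1, where 18.3% of all genes were called, and 1 lower at t2, where 7.74% were. In homozygous samples 1 was called higher and 2 lower than in siblings, where 33.0% of all genes were called higher and 27.8% lower. PDLP3, a plasmodesma-located protein, was the one in pAP142 t2 (log2 fold change -0.47, SE 0.134, adjusted p = 0.0401 in edgeR), and it had -1.74 (SE 0.212) in homozygous samples.

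Across the 28 samples that carry TET3, the gene whose level was most like it among 12957 with a mean of at least 5 TPM was CAD5 (AT4G34230), which encodes a cinnamyl alcohol dehydrogenase of lignin synthesis (Pearson r of log2(TPM + 1) 0.934). It was followed by MT1A, a metallothionein gene (0.917), AT1G17860 (0.916), NAS1, a nicotianamine synthase gene (0.915), and 4CL1, a 4-coumarate:CoA ligase gene (0.911). Among the family, TET2 was most like TET3 (0.886), then TET6 (0.816), TET1 (0.730), TET5 (0.708), TET8 (0.533), TET9 (0.405), TET4 (0.156) and TET7 (-0.002). The 28 points are 13 seedling pools, 11 leaf samples and 4 homozygous pAP146 samples, so they share differences in tissue, and values of 1 sample share its library. Over the 13 seedling pools alone r with TET3 was -0.084 for TET2, -0.11 for TET6 and -0.50 for TET1, and over the 11 leaf samples it was 0.664, -0.035 and -0.052. NAS1 had 0.006 over the seedling pools and 0.901 over the leaves, whereas CAD5 had 0.666 and 0.757.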

How the data were processed

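RNA-seq was analysed in 34 samples, grouped by their labels. The authors quantified stranded mRNA libraries with salmon 1.6.0 against the primary transcripts of Araport11. The deposited estimated counts are the reads that salmon assigned to each transcript, not normalized. TPM values, as deposited, are relative to effective transcript length and to the library, and 99.88% of listed lengths are multiples of 3, the length of a coding sequence. The depth was 26640541 to 43851997 estimated counts a sample. Counts, rounded to whole numbers, were fitted per experiment in edgeR 4.0.16 (R 4.3.3) with TMM, filterByExpr and robust quasi-likelihood F tests over all genes. All 9 members passed the filter in both experiments. Standard errors and normal 95% intervals came from the same fits. TPM was used for levels. TET4 was also compared by exact permutation tests (scipy 1.17.1).

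Alternatives were RLE size factors, no filter, effective length offsets, a replicate block, the compared groups alone, DESeq2 1.42.0, each sample left out, and for TET4 TMM CPM and log2(TPM + 0.1). Coordinates, promoters and coding sequences are from RefSeq TAIR10.1, in which 27352 of 27355 genes, all 9 members included, have a coding sequence of the listed length. Coding sequences were aligned with Biopython 1.88. Spacers came from the study's supplementary table. Promoters are printed for the TET3 and TET4 pair only. The members and gene lists were chosen with earlier results of these data known. All 9 members are named in each comparison, and up to 3 genes of each list by smallest adjusted p.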

Additional observations from a re-analysis of the deposited data

Results flagged for a closer look

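Among 44 combinations of a member and a group of 4 samples, 3 had a sample far from the others by Dixon's criterion, and chance alone marks about 1 in 20. TET8 was at 106.9 TPM in Col-0 t1 replicate 4 and at 51.9 to 60.9 TPM in the other 3 samples. TET8 was also at 47.0 TPM in sibling replicate 2 of the pAP146 experiment and at 22.6 to 24.1 TPM in the other 3 siblings. TET5 was at 0.808 TPM in Col-0 leaf replicate 4 and at 1.08 to 1.10 TPM in the others. Without Col-0 t1 replicate 4, no member's call changed. Without sibling replicate 2, TET8 had a log2 fold change of 1.94 in homozygous samples (adjusted p = 8.2e-06 in edgeR) and 0.76 in heterozygous ones (adjusted p = 0.740 in edgeR).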

How the results depend on the processing

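Over 16 log2 fold changes of called members and 214 alternatives, none changed direction and 203 kept their call. The 203 include 14 at t1 and 11 at t2 for TET3 in pAP141, which had no read and could not change direction. The remaining 11 of the 214 concern TET3 and TET7 in pAP142 t2 over Col-0 t2. With a replicate block the TET3 value there was 0.49 (adjusted p = 0.0590 in edgeR) while TET8 was called, which left the count at 2, and with the compared groups alone the TET7 value was -0.36 (adjusted p = 0.109). Of 180 alternatives to the 13 counts of members called, 168 lay within 1.5 times the count reported. In pAP142 t2 over Col-0 t2, 1 member was called with the compared groups alone. In pAP141 t2 over t1, 1 was called with a replicate block (TET1), and in pAP142 t2 over t1, 2 with DESeq2 (TET3 and TET2). With single samples left out, counts ran from 1 to 2 in pAP141 t2 over Col-0 t2, from 0 to 3 in pAP142 t2 over Col-0 t2, from 0 to 1 in pAP141 t2 over t1 and from 1 to 3 in pAP142 t2 over t1. TET1 was the call gained in pAP141, without pAP141 t2 replicate 2. The replicate numbers did not pair samples: residuals of samples with the same number correlated by a mean of 0.021 over 41 pairs of time-of-day samples and -0.032 over 21 pairs of pAP146 samples. TET4 in pAP141 kept its direction and side under all 10 alternatives at t1 (p = 0.0571 to 0.4, exact permutation tests) and all 5 at t2 (p = 0.333 to 0.667). Leaving out a pAP141 t2 sample was not run for TET4, since 1 sample would remain.

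The counts over all genes moved more than those of the members. DESeq2 called 1086 genes in pAP141 t1 and edgeR 16, 449 and 21 in pAP141 t2, 248 and 45 for the pAP142 interaction, 13 and 0 for the pAP141 interaction, and 38 and 11 in heterozygous leaves over siblings. With the compared groups alone edgeR called 9 in pAP141 t2, 1047 in pAP142 t2, where it otherwise called 1654, and 12 for the pAP142 interaction, and with a replicate block 15 for that interaction and 0 in heterozygous leaves. In pAP142 t1 over Col-0 t1, 2190 genes were called without pAP142 t1 replicate 3 and 2353 without replicate 2, against 3916. With single samples left out, 661 to 2544 were called in pAP142 t2 over Col-0 t2, 3 to 53 for the pAP142 interaction and 0 to 138 for the pAP141 interaction. TET4 and TET9 have too few reads for small differences to be seen, and each deletion is 1 line.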
